A study of Mus musculus with 123 samples.

Results

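The 39 genes described here carry fatty acids from the cell surface through the carnitine shuttle and beta-oxidation, and carry ketone bodies and pyruvate with them into the citrate cycle. They were taken by symbol from the 23337 genes of the deposited count table, all 39 were found, and they were kept apart in 8 steps. The steps were uptake and activation (3 genes), the carnitine shuttle (4), the beta-oxidation spiral (9), its auxiliary enzymes (3), the electron transfer flavoprotein with its dehydrogenase (3), ketone use (3), the pyruvate dehydrogenase complex (4) and the citrate cycle (10). The first 5 steps, 22 genes in all, are called the fatty acid genes below.

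Single GFP-positive cells were collected from the hearts of αMHC-GFP mice at the embryonic stages E9.5 and E12.5 and at the neonatal stage P1, captured on the Fluidigm C1 microfluidic system and sequenced one by one. All cells came from the same reporter strain and the labels name no treatment. GFP stands under the αMHC (Myh6) promoter, so which cells were sampled depended on that promoter, and tissue was dissociated with Collagenase type I at E9.5 and E12.5 but with Liberase Blendzyme at P1, so the enzyme and the change to P1 cannot be told apart. Of 123 cells, 112 had counts in 2000 genes or more and were used, which were all 42 E9.5 cells, all 29 E12.5 cells and 41 of the 52 P1 cells. Where values follow one another below without a time point, levels stand in the order E9.5, E12.5, P1 and ratios in the order E12.5 to E9.5, P1 to E12.5, P1 to E9.5.

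The heart is known to change its fuel around birth, from glucose and lactate before it to fatty acids after it. Long-chain fatty acids enter the cell with the help of CD36, are held in the cytosol by FABP3, are joined to coenzyme A by ACSL1 and pass into mitochondria as carnitine esters, where each turn of beta-oxidation shortens the chain and hands electrons to the respiratory chain. The acetyl-CoA made there, from pyruvate by pyruvate dehydrogenase or from ketone bodies, is burned in the citrate cycle, and many of these genes are known targets of the nuclear receptors PPARα and ERRα and their coactivator PGC-1α.

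The promoters of 4 genes are printed because these genes stand for the first steps of the path and for one of its dehydrogenases, and because they differ in the letters they hold. The windows are from RefSeq on GRCm38.p6 and run from 250 bases before to 50 bases after the start of the transcript, on the gene's own strand. Capitals mark AGGTCA, the half-site that nuclear receptors are known to read, and GGGCGG, the GC box, each searched on both strands. The Fabp3 window is chr4:130308488-130308787 (plus strand), that of Cd36 is chr5:17835847-17836146 (minus strand), that of Cpt1a is chr19:3323051-3323350 (plus strand) and that of Acadm is chr3:153944594-153944893 (minus strand). The Cd36 and Cpt1a windows lie inside the full extent of their genes, chr5:17781690-17888959 and chr19:3322326-3385735. They therefore do not cover the outermost start of these genes.
Fabp3: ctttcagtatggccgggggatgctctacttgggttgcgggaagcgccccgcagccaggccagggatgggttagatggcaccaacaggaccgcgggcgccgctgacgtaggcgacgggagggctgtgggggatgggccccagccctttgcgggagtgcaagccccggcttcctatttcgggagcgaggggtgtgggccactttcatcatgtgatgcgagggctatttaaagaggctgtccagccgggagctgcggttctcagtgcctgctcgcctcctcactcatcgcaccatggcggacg
Cd36: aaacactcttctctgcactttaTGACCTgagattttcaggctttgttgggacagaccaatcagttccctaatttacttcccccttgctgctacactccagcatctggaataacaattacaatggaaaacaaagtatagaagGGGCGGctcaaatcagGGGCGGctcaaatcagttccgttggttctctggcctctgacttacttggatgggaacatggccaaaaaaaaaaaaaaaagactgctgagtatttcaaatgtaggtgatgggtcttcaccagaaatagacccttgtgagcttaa
Cpt1a: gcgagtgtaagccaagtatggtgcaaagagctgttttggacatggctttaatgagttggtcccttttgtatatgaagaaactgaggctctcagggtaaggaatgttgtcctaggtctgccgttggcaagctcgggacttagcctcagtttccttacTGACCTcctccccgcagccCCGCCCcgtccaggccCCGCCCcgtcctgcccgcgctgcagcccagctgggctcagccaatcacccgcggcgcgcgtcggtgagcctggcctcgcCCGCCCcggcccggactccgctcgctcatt
Acadm: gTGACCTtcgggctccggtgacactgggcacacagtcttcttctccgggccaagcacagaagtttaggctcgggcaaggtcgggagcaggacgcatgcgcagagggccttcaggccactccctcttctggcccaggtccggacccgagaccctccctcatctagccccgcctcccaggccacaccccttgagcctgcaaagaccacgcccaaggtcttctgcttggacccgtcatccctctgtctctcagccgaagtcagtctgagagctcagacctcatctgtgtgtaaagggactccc
The Fabp3 window held neither motif. The Cd36 window held the half-site on the opposite strand with its first base at position -228, where position 0 is the first base of the transcript, and 2 GC boxes. In Cpt1a the half-site stood at -94 beside 3 GC boxes, and in Acadm at -249 with no GC box.

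RefSeq windows were at hand for 34 of the 39 genes, 41 windows in all since some genes have several starts. AGGTCA was present in 9 of the 41 windows (22.0%) against 16.3% of all 32851 windows of that length. The 9 genes were Cd36, Cpt1a, Acadvl, Acadm, Echs1, Idh3g, Ogdh, Sucla2 and Fh1. The longer TCAAGGTCA, which contains AGGTCA and is the form ERRα is known to prefer, was in none of the 41 windows and in 0.423% of all windows. GGGCGG was in 27 windows (65.9%) of 24 genes, against 35.7% of all windows. These matches describe letters in a window and not binding.

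The labels do not tell which cells share an animal or a chip. A time point therefore counts as 1 sample, no test across cells is given, and a difference is read against the spread between sets of cells that the titles name alike. Set C took in 14 cells at the first time point, 20 at the second and all P1 cells, set N530 was made of 28 E9.5 cells and set N523 of 8 E12.5 cells, while 1 E12.5 cell carried another name and was not plotted apart. Total counts per cell ranged between 268301 and 6351742 (E9.5), 148258 and 7711355 (E12.5), and 69522 and 327360 (P1). Of the 101042067 counts of E9.5 cells, 95450903 came from N530. Of the 50538600 counts of E12.5 cells, 41803388 came from the 8 cells of N523, so pooled E12.5 values mostly weigh these cells. Of 10 markers of cardiomyocytes (CMs), 8 or more had counts in every E12.5 cell, in 40 of 41 P1 cells and in 39 of 42 E9.5 cells. The 3 E9.5 cells below that, all of set C, had a level of the 39 genes, summed as CPM (counts scaled to 1000000 per cell), between 3516 and 4626. The P1 cell below it held 272 CPM of the cardiomyocyte markers, 7998 CPM of the 8 endothelial markers and 5310 CPM of the 39 genes, the lowest at P1. An E9.5 cell of set N530 had counts in 9 of the 10 cardiomyocyte markers but only 2520 CPM of them. It held 1082 CPM of the 8 fibroblast markers and 3419 CPM of the 39 genes, passed the limit of 8 markers and was kept. The 10 cardiomyocyte markers summed to 62517, 37842 and 78488 pooled CPM. The 8 endothelial markers summed to 68.0, 0.0594 and 242 CPM and were at 0 in 18 of 42, 27 of 29 and 38 of 41 cells. The 8 fibroblast markers, at 208, 51.4 and 3.37 CPM, were at 0 in 19, 18 and 40 cells, and the 6 epicardial markers, at 188, 33.3 and 21.4 CPM, in 25, 13 and 35 cells. The 6 macrophage markers were at 0, 0.0396 and 13.3 CPM and the 7 erythroid markers at 5.22, 0.0396 and 0 CPM. The 6 smooth muscle markers, of which Acta2 and Tagln are also known from early CMs, summed to 5376, 1554 and 1434 pooled CPM, the 5 atrial markers to 15058, 16587 and 10849 CPM and the 4 ventricular markers to 4274, 6978 and 14537 CPM. In set C alone the log2 ratio of E12.5 to E9.5 had the other sign for the cardiomyocyte markers (0.55, pooled -0.72) and the epicardial markers (0.89, pooled -2.49), as did all 3 ratios of the atrial markers (-0.07, 0.69 and 0.62, pooled 0.14, -0.61 and -0.47). The part of all these markers in the results below was not tested.

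Together the 39 genes took a larger part of the mRNA at each later time point. The lowest, median and highest cell of E9.5 had 3372, 7144 and 15777 CPM, those of E12.5 had 6799, 13709 and 22976 CPM, and those of P1 had 5310, 42388 and 62758 CPM. Of the 41 P1 cells, 40 lay above the highest E9.5 cell and 39 above the highest E12.5 cell, whereas 11 of 29 E12.5 cells lay above the highest E9.5 cell. With the counts of all cells of a time point pooled, the sums were 8937 CPM (95% exact Poisson interval 8919 to 8956), 16605 CPM (16569 to 16640) and 43124 CPM (42969 to 43281). These intervals cover counting error only, since the reads carry no molecular identifiers. The pooled sum was 1.86-fold higher at E12.5 than at E9.5 (log2 0.89 ± 0.36, SD over the 4 combinations of naming sets), 2.60-fold higher at P1 than at E12.5 (log2 1.38 ± 0.25, 2 combinations) and 4.83-fold higher at P1 than at E9.5 (log2 2.27 ± 0.36, 2 combinations). The SD beside a log2 ratio below is that over these combinations. Every combination of sets gave the same direction, with log2 ratios of 0.58 to 1.44, 1.32 to 1.67 and 2.25 to 2.75. Without the 4 cells with few CM markers they were 0.88, 1.42 and 2.30. All comparisons with P1 use the same P1 cells, in which 1 dissociation enzyme, 1 naming set and the lowest depth come together.

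**Figure D1:**
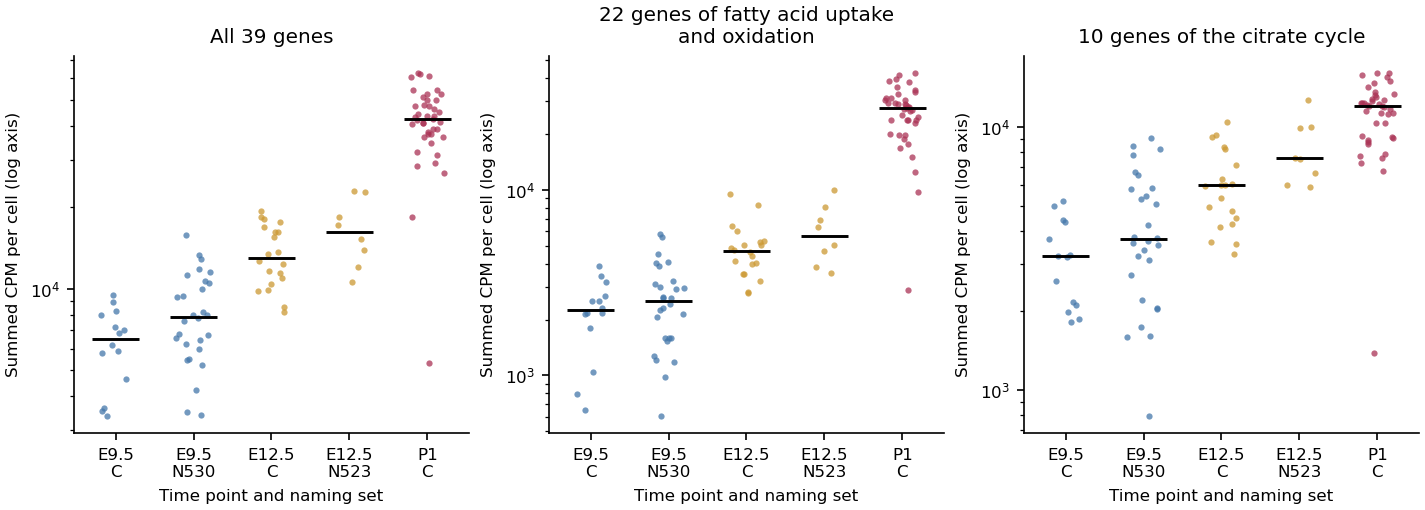
Summed CPM per cell (log axis) of all 39 genes, the 22 fatty acid genes and the 10 citrate cycle genes by time point and naming set, each point 1 cell and each bar a median. For all 39 genes, of 41 P1 cells, 40 lie above the highest E9.5 cell, and the lowest P1 point is the cell with few cardiomyocyte markers at 5310 CPM.

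Gene by gene, a gene was called when it reached 10 pooled CPM at either time point and differed at least 2-fold the same way in the pooled cells and in every combination of naming sets of 6 or more cells. From E9.5 to E12.5, 37 of the 39 genes reached the minimum, 7 were higher and 1 was lower, against 3.43% of all 8647 genes tested called higher and 10.7% called lower. From E12.5 to P1, 17 of 36 were higher and 0 lower, against 15.6% and 16.2% of 8122 genes. From E9.5 to P1, 31 of 37 were higher and 0 lower, against 13.2% and 26.6% of 9003 genes. The median log2 ratio of the list was 0.73, 1.20 and 2.13 in these comparisons, and that of all genes tested was -0.60, 0.05 and -0.59. TMM scaling factors of the pooled time points moved every log2 ratio by 0.43, -0.26 and 0.17, and 2 genes, Cpt1a and Acads, reached the minimum at 1 of the 2 time points only in the comparisons with E9.5. Bdh1 and Cpt1b reached it in none, and Acads did not in P1 against E12.5. Without the 4 cells with few CM markers the numbers of genes called were the same, 7, 17 and 31 higher and 1, 0 and 0 lower. The share of all genes tested called higher was then 3.69%, 14.99% and 12.92%, and the share called lower was not computed.

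**Figure D2:**
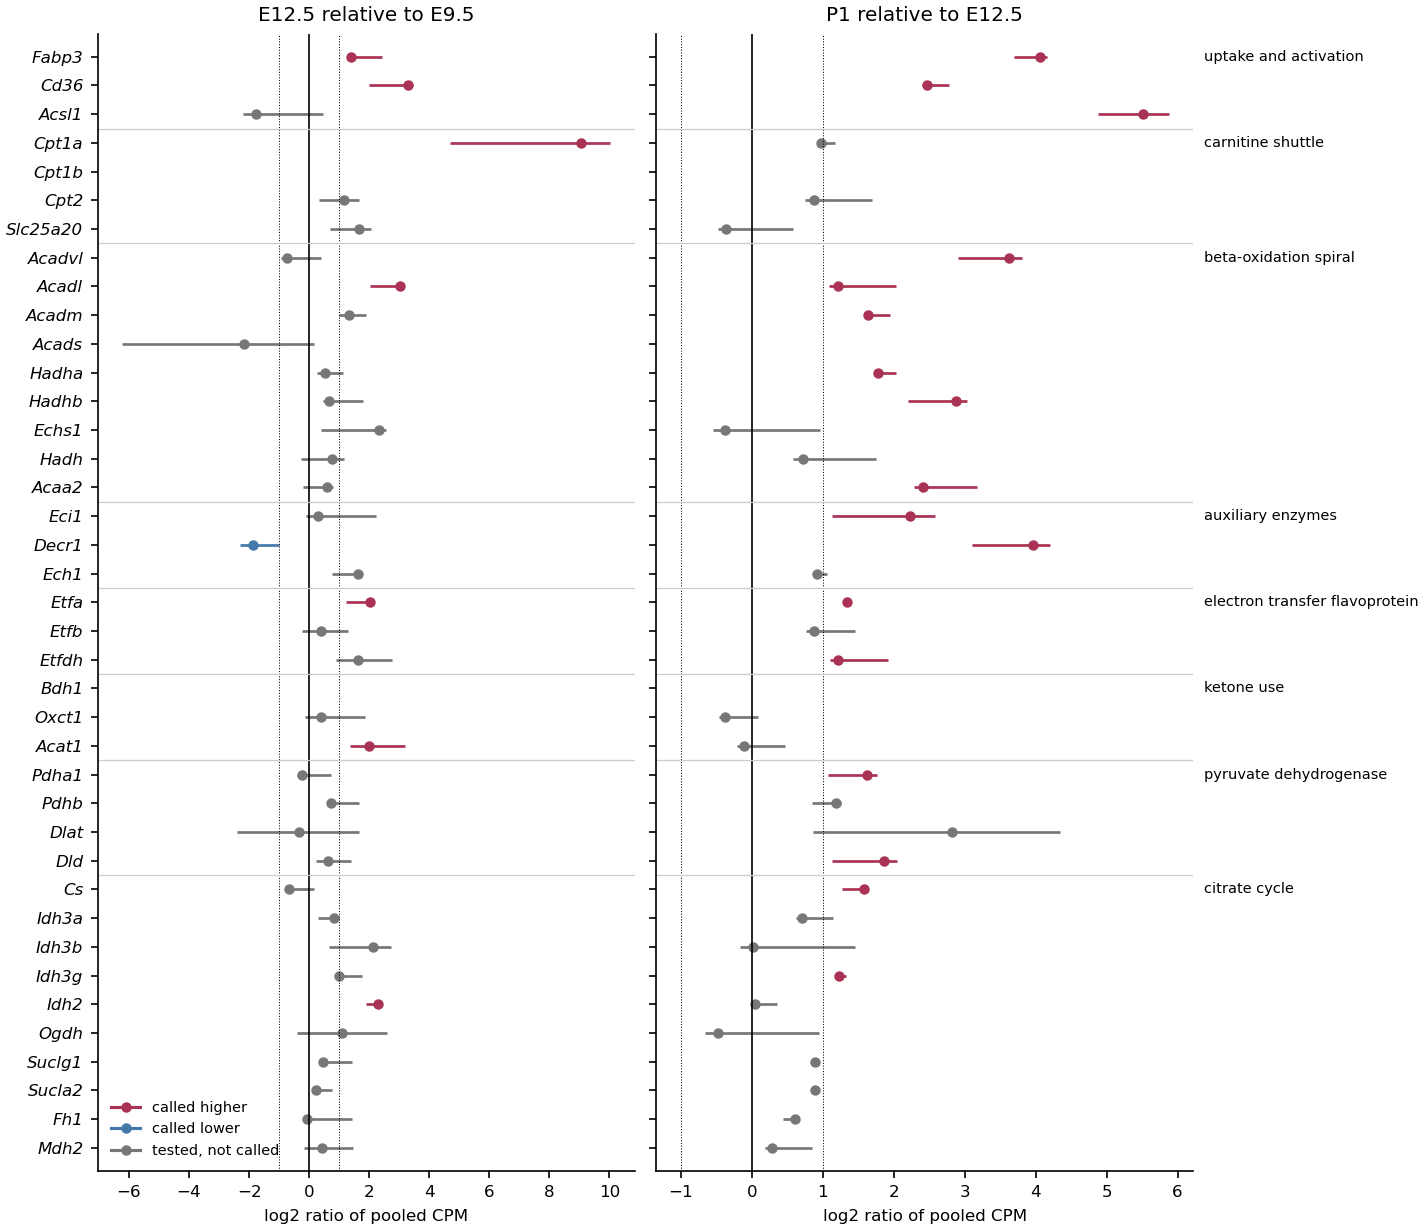
Log2 ratio of pooled CPM of each gene tested, E12.5 to E9.5 on the left and P1 to E12.5 on the right, ordered by step, with lines spanning the combinations of naming sets, dotted lines at 2-fold and genes called higher in red or lower in blue. On the right Acsl1, Fabp3 and Decr1 lie farthest from 0, at 5.50, 4.06 and 3.96, while Oxct1 and Acat1 lie at -0.37 and -0.10.

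The uptake and activation genes had the highest log2 ratio of the 8 pooled step sums in both comparisons with P1. Fabp3, the fatty acid binding protein of heart and skeletal muscle, had 0, 159 and 902 CPM in the lowest, median and highest E9.5 cell. The lowest, median and highest cells of E12.5 were at 169, 581 and 3198 CPM, and those of P1 at 9.72, 11090 and 22208 CPM. Of the P1 cells, 40 lay above the highest E9.5 cell and 37 above the highest E12.5 cell, and the cell at 9.72 CPM was the one with endothelial markers. Pooled Fabp3 was 251, 654 and 10905 CPM, 2.60-fold higher at E12.5 than at E9.5 (log2 1.38 ± 0.48) and 16.7-fold higher at P1 than at E12.5 (log2 4.06 ± 0.32). Its part of the counts of the 39 genes was 2.81%, 3.94% and 25.3%. A stretch of 81 bases of Fabp3 overlaps Zcchc17 on chromosome 4, and reads there cannot be told apart without strand.

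Cd36, the fatty acid translocase of the plasma membrane, was found in 24 of 42, 25 of 29 and 41 of 41 cells. Its lowest, median and highest cells were at 0, 0.553 and 956 CPM, at 0, 201 and 2703 CPM and at 116, 2116 and 4775 CPM. The groups overlapped, with 34 P1 cells above the highest E9.5 cell but 12 above the highest E12.5 cell. The pooled level rose from 40.1 to 393 to 2176 CPM, log2 3.29 ± 0.66 and 2.47 ± 0.27. At E12.5, however, 1 cell held 69.9% of the Cd36 counts, and without the top cell of each time point, a comparison chosen after the data were seen, the difference between E9.5 and E12.5 was no longer called (log2 2.55), while P1 stood above E12.5 by 3.99 (log2). Acsl1, which joins long-chain fatty acids to coenzyme A, was found in 14 of 42, 7 of 29 and 40 of 41 cells. Its median cell was at 0, 0 and 687 CPM, and the pooled level of 53.6, 15.6 and 709 CPM was 45.4-fold higher at P1 than at E12.5 (log2 5.50 ± 0.71) and 13.2-fold higher than at E9.5 (log2 3.72 ± 1.19). Single cells held 51.5% of its E9.5 counts and 63.8% of its E12.5 counts, and without the top cells these log2 ratios were 6.78 and 4.67. The difference between E9.5 and E12.5 was not called. With these 3 genes summed, the median cell went from 219 to 898 to 13925 CPM, and the pooled log2 ratio was 1.62 at E12.5 to E9.5, 3.70 at P1 to E12.5 and 5.32 at P1 to E9.5.

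**Figure D3:**
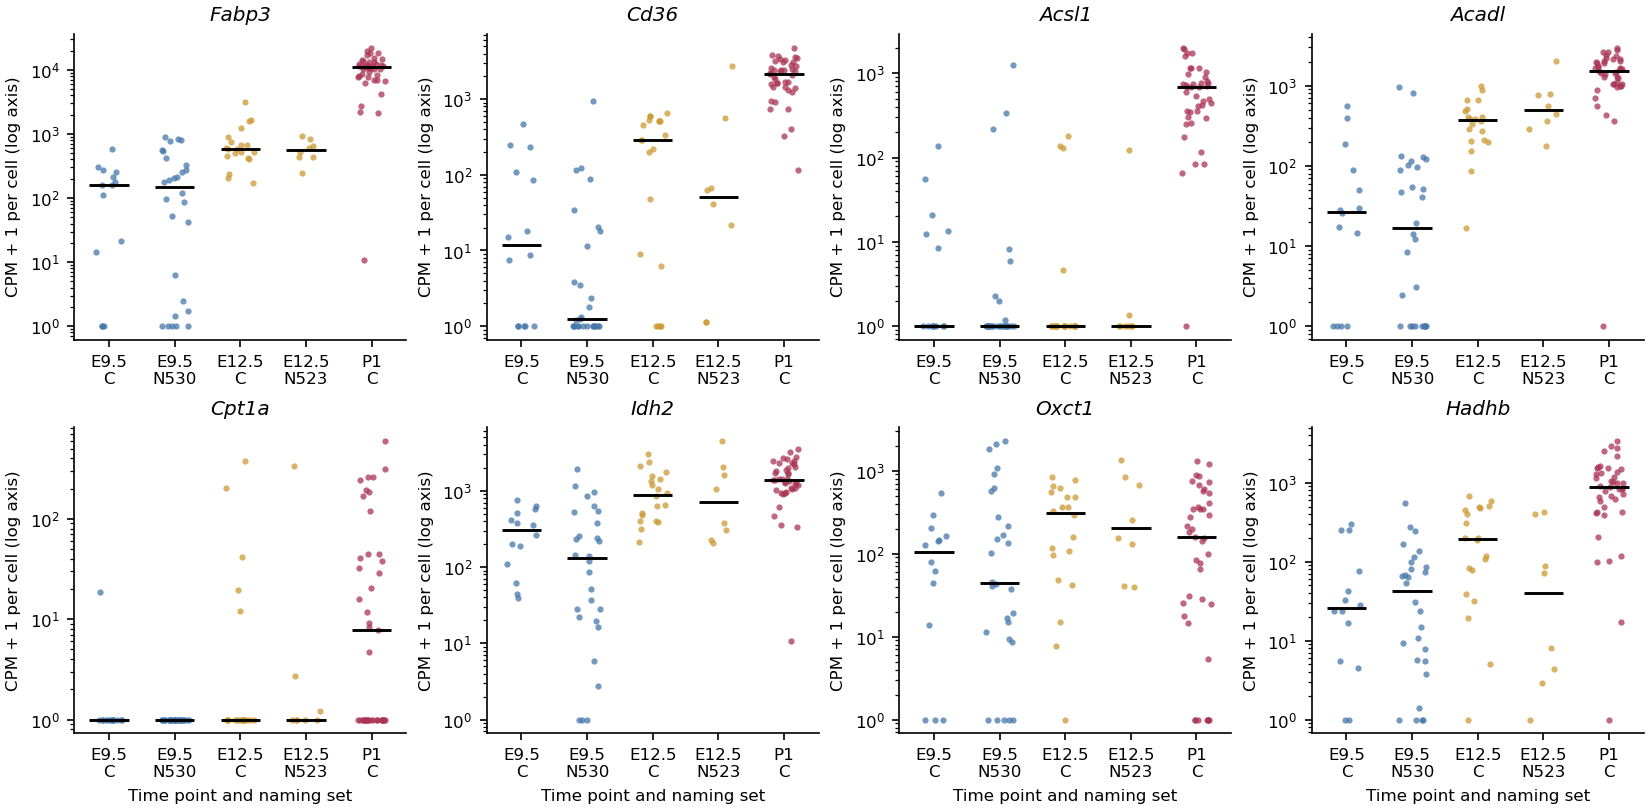
CPM + 1 per cell (log axis) of 8 genes by time point and naming set, each point 1 cell, each bar a median, with cells at 0 lying at 1. Cd36 is found in all 41 P1 cells and Acsl1 in 40, Idh2 is already at 848 CPM in the median E12.5 cell, and the median cell of Hadhb is at 894 CPM at P1.

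The carnitine shuttle stood at a lower level and in fewer cells. Its 4 genes summed to 81.7, 236 and 359 pooled CPM, and 18 of 42, 9 of 29 and 3 of 41 cells held no count of any of them. Between E12.5 and P1 no gene of the shuttle was called, and the log2 ratio of the sum was 0.60 ± 0.60. Between E9.5 and P1 all 3 genes tested were higher and the sum had a log2 ratio of 2.13 ± 0.24.

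CPT1, which makes the carnitine esters at the outer mitochondrial membrane, has a liver form (Cpt1a) and a muscle form (Cpt1b). Cpt1a was found in 1 E9.5 cell of 42. At E12.5 it was in 8 of 29 cells (27.6%, 95% exact binomial interval 12.7 to 47.2%), and at P1 in 22 of 41 (53.7%, 37.4 to 69.3%). With every cell thinned to 100000 counts the shares were 2.38%, 17.2% and 44.7%. Its pooled level was 0.0594, 31.8 and 62.5 CPM, from 6, 1608 and 426 counts. It was called higher at E12.5 and at P1 than at E9.5, but 85.4% of the E12.5 counts lay in 1 cell, and without the top cells the E12.5 level was 5.04 CPM and Cpt1a fell under the minimum for that comparison. Cpt1b had 99 counts in 5 cells, 160 counts in 4 cells and 1 count in 1 cell. By the deposited transcripts per 1000000 (TPM), which are per length, the muscle form made up 68.99%, 6.13% and 0.878% of both. The E9.5 share was 0% in set C, where 1 cell had Cpt1a, and 100% in set N530, where no cell had Cpt1a. In RefSeq the lncRNA Gm44502 covers the whole of Cpt1b on chromosome 15 and is no row of the count table, and its part in the low Cpt1b counts was not tested.

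Cpt2, the inner-membrane enzyme that releases the fatty acid to coenzyme A again, was at 58.4, 131 and 242 CPM and was found in 19 of 42, 14 of 29 and 29 of 41 cells. It was higher at P1 than at E9.5 (log2 2.05 ± 0.26). Slc25a20, the carnitine-acylcarnitine carrier of the inner membrane, was at 22.3, 70.1 and 54.5 CPM, and was higher at P1 than at E9.5 as well (log2 1.29 ± 0.20). For both genes single cells weighed heavily at E12.5, where the top cell held 79.1% of the Cpt2 counts and 89.6% of the Slc25a20 counts. Without the top cells the E12.5 to E9.5 ratio turned to the other sign for both, from 1.17 to -0.33 (log2) for Cpt2 and from 1.65 to -0.36 for Slc25a20, and Slc25a20 was at 2.09 (log2) for P1 to E9.5. Slc25a20 was found in 17.2% of cells at E12.5 but 56.1% at P1, and the pooled ratio of -0.36 (log2) between these time points turned to 2.44 without the top cells.

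In the beta-oxidation spiral the first enzymes, the acyl-CoA dehydrogenases, differ in the chain length they take. Acadl, the long-chain form, had a median cell of 21.5, 385 and 1534 CPM, and 28 of 29 E12.5 cells lay above the median E9.5 cell. Its pooled level of 83.7, 680 and 1572 CPM was the only one of the spiral called higher in all 3 comparisons, with log2 ratios of 3.02 ± 0.55, 1.21 ± 0.66 and 4.23 ± 0.14. Acadvl, the very-long-chain form, was at 73.8, 44.7 and 551 CPM and was found in 18 of 42, 14 of 29 and 39 of 41 cells. It was 12.3-fold higher at P1 than at E12.5 and 7.48-fold higher than at E9.5 (log2 3.62 and 2.90). A single E12.5 cell held 61.6% of its E12.5 counts, and without the top cells these log2 ratios were 4.77 and 3.41, both still called. Acadm, the medium-chain form, was at 153, 384 and 1192 CPM, higher at P1 than at E12.5 (log2 1.63 ± 0.26) and than at E9.5 (log2 2.96 ± 0.38). Acads, the short-chain form, went apart from these. It was found in 10 of 42, 4 of 29 and 6 of 41 cells at 17.4, 3.88 and 4.40 CPM, with no call, and 70.9% of its E9.5 counts came from 1 cell.

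Hadha and Hadhb encode the trifunctional protein, which runs the later steps on long chains. Hadha was found in 29 of 42, 26 of 29 and 41 of 41 cells, with median cells of 55.3, 158 and 588 CPM and highest cells of 849, 567 and 1683 CPM. Hadhb was found in 36 of 42, 27 of 29 and 40 of 41 cells, with median cells of 28.7, 108 and 894 CPM and highest cells of 558, 682 and 3380 CPM. Both were higher at P1 than at E12.5, 3.42-fold for Hadha (log2 1.77 ± 0.22) and 7.32-fold for Hadhb (log2 2.87 ± 0.59), and neither was called between E9.5 and E12.5. Acaa2, the mitochondrial thiolase that closes each turn, was at 240, 359 and 1905 pooled CPM and was 5.31-fold higher at P1 than at E12.5 (log2 2.41 ± 0.63). The top E12.5 cell held 48.6% of the Acaa2 counts, and without the top cells that log2 ratio was 3.18. For the shorter chains, Echs1, the enoyl-CoA hydratase, was at 102, 516 and 399 CPM, and Hadh, the hydroxyacyl-CoA dehydrogenase, at 274, 463 and 765 CPM. Neither was called between E12.5 and P1, and both were higher at P1 than at E9.5. At E12.5, 1 cell held 56.2% of the Echs1 counts and 1 cell 68.9% of the Hadh counts. Without the top cells Echs1 was at 267 CPM at E12.5, its P1 to E12.5 ratio went from -0.37 to 0.51 (log2), and it was still not called. Hadh was then at 166 CPM at E12.5, its E12.5 to E9.5 ratio went from 0.76 to -0.42 (log2), and it was called higher at P1 than at E12.5 (log2 2.14). A stretch of 687 bases of Echs1 overlaps Paox.

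The auxiliary enzymes move double bonds so that unsaturated fatty acids can enter the spiral. Eci1, an enoyl-CoA isomerase, was at 94.5, 115 and 543 CPM and was higher at P1 than at E12.5 (log2 2.23 ± 1.03) and than at E9.5 (log2 2.52 ± 0.62). Decr1, the dienoyl-CoA reductase, was the 1 gene called lower at E12.5 than at E9.5, at 120, 32.7 and 508 CPM. Its drop to E12.5 had a log2 ratio of -1.88 ± 0.64, but the share of cells with a count was 40.5% and then 55.2%, 1 cell held 50.8% of the E9.5 counts, and the call was lost with TMM factors. It was also lost without the top cells, where the pooled ratio was -2.44 (log2) and the combinations of sets ranged from -8.00 to 0.06. Between E12.5 and P1 Decr1 was 15.5-fold higher (log2 3.96 ± 0.77, and 5.38 without the top cells). Ech1, a dienoyl-CoA isomerase, was at 67.2, 207 and 390 CPM and was called only between E9.5 and P1 (log2 2.53 ± 0.54).

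The electron transfer flavoprotein takes the electrons of the acyl-CoA dehydrogenases to ubiquinone. Its alpha subunit Etfa had a median cell of 67.5, 319 and 902 CPM and was higher in all 3 comparisons (log2 2.04 ± 0.52, 1.34 ± 0.04 and 3.38 ± 0.63), although the first call was lost without the top cells, at a pooled ratio of 1.86 and a range of 0.70 to 2.42 over the sets. The P1 to E12.5 ratio was then 1.69, from 1.23 to 1.80 over the sets. Its SD of 0.04 covers only the difference between the E12.5 sets, since the P1 cells are shared. Etfb, the beta subunit, was already found in 37 of 42 cells at E9.5 and was at 668, 872 and 1595 pooled CPM, called only between E9.5 and P1 (log2 1.25 ± 0.60). Etfdh, the ubiquinone oxidoreductase, was found in 17 of 42, 21 of 29 and 40 of 41 cells at 111, 345 and 803 CPM. It was higher at P1 than at E12.5 (log2 1.22 ± 0.57) and than at E9.5 (log2 2.86 ± 0.73). A single E9.5 cell held 65.1% of its E9.5 counts, and without the top cells Etfdh was at 39.3 CPM at E9.5, its P1 to E9.5 ratio was 4.21 (log2) and it was called higher at E12.5 than at E9.5 as well (log2 2.70).

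In the pooled cells the sum of the ketone use genes was 483, 1088 and 946 pooled CPM, with a log2 ratio of -0.20 ± 0.43 at P1 to E12.5 and 0.97 ± 0.92 at P1 to E9.5, and in set C alone 0.31 and 2.23. The sign of the first also turned under other alternatives. Oxct1, the enzyme that activates ketone bodies outside the liver, was at 312, 406 and 313 CPM and was called in none of the 3 comparisons, with 17 of 41 P1 cells above the median E12.5 cell. Acat1, which splits acetoacetyl-CoA, had a median cell of 2.56, 415 and 624 CPM. It was higher at E12.5 than at E9.5 (log2 1.99 ± 0.77) and at P1 than at E9.5 (log2 1.89 ± 0.81, and 2.57 without the top cells), with no call between E12.5 and P1. Bdh1, which oxidises beta-hydroxybutyrate, had 17 counts in 1 cell, 127 counts in 6 cells and, at P1, 0 counts in 41 cells, where 3 counts would be a pooled level of 0.440 CPM.

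The pyruvate dehydrogenase complex joins glycolysis to the citrate cycle. Its 4 genes were all higher at P1 than at E9.5 and summed to 889, 1255 and 3550 CPM (log2 2.00 ± 0.21 between E9.5 and P1). Pdha1, the E1 alpha subunit, was at 203, 171 and 527 CPM, and Dld, the E3 subunit that other dehydrogenase complexes share, at 182, 284 and 1029 CPM. Both were higher at P1 than at E12.5, by log2 1.62 ± 0.49 for Pdha1 and 1.86 ± 0.64 for Dld, and the Pdha1 call was lost without the top cells, at a pooled ratio of 1.67 and a range of 0.93 to 1.92 over the sets. Pdhb, the E1 beta subunit, was at 460, 765 and 1747 CPM, and its P1 to E12.5 ratio ranged from 0.85 to 1.25 (log2) between sets and was not called. Dlat, the E2 core, was higher at P1 than at E9.5 but differed between sets in the middle, with 135 CPM in set C and 12.2 CPM in set N523 at E12.5, beside 247 CPM at P1. Pdha1 and Map3k15 overlap over 1128 bases.

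The citrate cycle genes were at a high level from the start and, in the pooled cells, differed less between time points than the fatty acid genes. The median cell of their sum was at 3568, 6024 and 11936 CPM. The lowest and highest cells were 793 and 9091 CPM (E9.5), 2211 and 12608 CPM (E12.5), and 1376 and 16001 CPM (P1), so that all time points overlapped. The pooled log2 ratio was 0.77 ± 0.46, 0.48 ± 0.36 and 1.25 ± 0.44, against 1.13 ± 0.29, 2.17 ± 0.27 and 3.30 ± 0.22 for the fatty acid genes. The citrate cycle made up 53.7%, 49.4% and 26.5% of the counts of the 39 genes, and uptake and activation 3.86%, 6.40% and 31.98%.

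**Figure D4:**
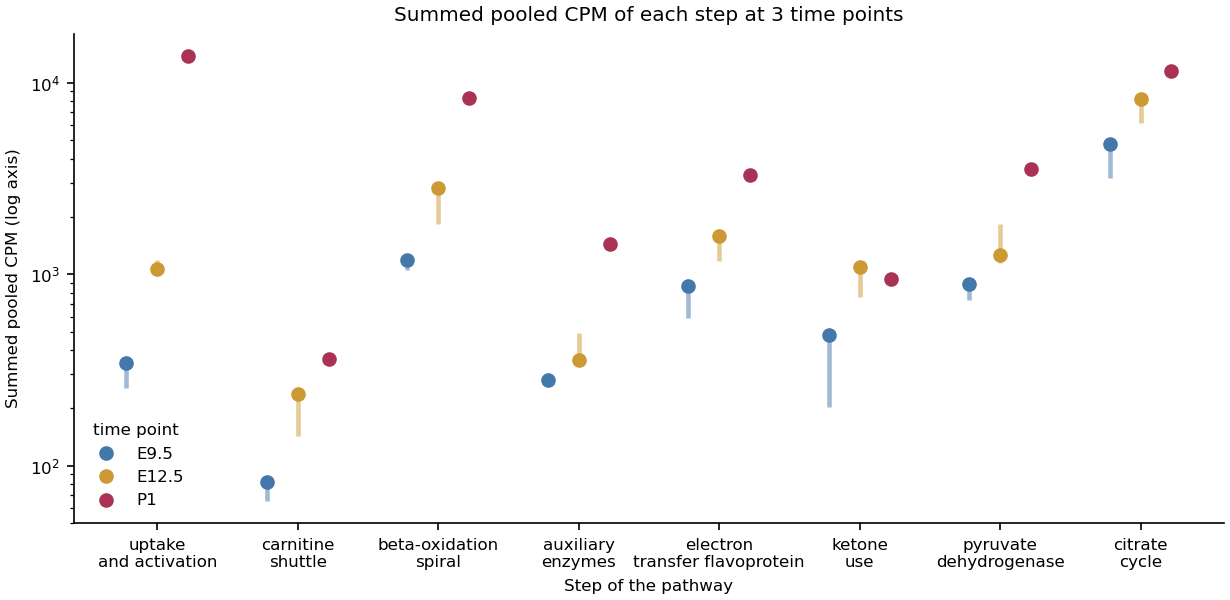
Summed pooled CPM (log axis) of each of the 8 steps by time point, points for all cells of a time point and lines spanning the naming sets. Uptake and activation goes from 345 to 1063 to 13790 CPM, while ketone use goes from 483 to 1088 to 946 CPM.

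Within the cycle, Idh2, the NADP-dependent isocitrate dehydrogenase, was the gene called higher at E12.5 than at E9.5. Its median cell was at 193, 848 and 1390 CPM, its lowest at 0, 208 and 9.72 CPM and its highest at 1958, 4493 and 3481 CPM. The pooled level of 303, 1481 and 1529 CPM rose by log2 2.29 ± 0.22 to E12.5, and the log2 ratio from there to P1 was 0.05 ± 0.26. Without the top cells Idh2 was at 1019 CPM at E12.5 and was still called higher than at E9.5 (log2 1.92). Its P1 to E12.5 ratio was then 0.54 (log2), from 0.31 to 0.59 over the sets, and was not called. Citrate synthase (Cs), the entry enzyme, was called between E12.5 and P1, at 514, 322 and 962 CPM with a log2 ratio of 1.58 ± 0.26, as was Idh3g, a regulatory subunit of the NAD-dependent isocitrate dehydrogenase, at 198, 399 and 938 CPM (log2 1.23 ± 0.08). The other subunits of that enzyme, Idh3a at 661, 1187 and 1934 CPM and Idh3b at 183, 790 and 800 CPM, were called only between E9.5 and P1. Suclg1 and Sucla2, subunits of succinyl-CoA ligase, were also called there, by log2 1.36 ± 0.69 and 1.12 ± 0.36. Ogdh (373, 787 and 564 CPM), a subunit of the oxoglutarate dehydrogenase complex, Fh1 (408, 389 and 593 CPM), the fumarase, and Mdh2 (1351, 1835 and 2239 CPM), the mitochondrial malate dehydrogenase, were called in no comparison. The top E12.5 cell held 48.4% of the Ogdh counts, and without the top cells Ogdh was at 452 CPM (E12.5) and 505 CPM (P1).

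Per length, by the deposited TPM, the order of the genes also differed between time points. At E9.5 Mdh2 stood first with 1547 ± 1545 TPM (mean and SD over 42 cells), followed by Etfb with 1284 ± 1238 TPM and Fabp3 with 699 ± 826 TPM. At E12.5 Fabp3 stood first with 2135 ± 1758 TPM (29 cells) and Mdh2 next with 1910 ± 1200 TPM. At P1 Fabp3 was at 27151 ± 11411 TPM (41 cells), and Etfb, Mdh2 and Acaa2 followed at 3251 ± 1509, 2882 ± 938 and 2025 ± 1119 TPM. Apart from Fabp3 at P1, the neighbours named here lay within the SD of one another.

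The median cell had counts for 25.5 (range 11 to 34), 30 (25 to 38) and 35 (19 to 37) of the 39 genes, although P1 cells were the least deep. With every cell thinned to 100000 counts, which left out 3 P1 cells, the medians were 23, 28 and 34. Genes found in 50% of cells or more numbered 29, 31 and 36.

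Of 58 other genes of the same pathways, 43, 48 and 49 reached the minimum in E12.5 to E9.5, P1 to E12.5 and P1 to E9.5. In these comparisons 7, 17 and 23 were higher and 2, 2 and 3 lower, against 3.43%, 15.6% and 13.2% of all genes called higher and 10.7%, 16.2% and 26.6% called lower. The lower calls were Acsl5 and Acaca at E12.5 to E9.5, Plin2 and Pdk3 at P1 to E12.5, and Acsl5, Pdk1 and Pdp2 at P1 to E9.5. Among the genes of fatty acid supply, Lpl, the lipase that frees fatty acids from lipoproteins, was higher in all 3 at 105, 264 and 1167 CPM. Plin5, a lipid droplet protein of oxidative tissues, had 1, 0 and 339 counts, the last in 11 of 41 cells. Acsl5, another acyl-CoA synthetase, fell by 2.84 ± 1.52 on the log2 scale to E12.5, from 22.6 to 3.17 CPM. Fabp5, the epidermal form, was at 80.9, 56.6 and 259 CPM and is among the 23 genes called higher at P1 than at E9.5, but all of its P1 counts lay in the cell with endothelial markers.

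Acot2, a mitochondrial acyl-CoA thioesterase, was at 154, 356 and 2287 CPM and was 2.68 ± 0.33 higher on the log2 scale at P1 than at E12.5, and its neighbour Acot1, a cytosolic one whose sequence is close to that of Acot2, was at 0.247, 0.415 and 49.4 CPM. Reads of these similar genes may be split between them by the counting. Crat, the carnitine acetyltransferase, was higher in all 3 comparisons at 9.86, 137 and 386 CPM.

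On the pyruvate side, both subunits of the mitochondrial pyruvate carrier, listed as Brp44l and Brp44, were higher at P1 than at E9.5, at 23.9, 156 and 366 CPM and at 61.5, 261 and 436 CPM. The pyruvate dehydrogenase kinases, which switch the complex off, went in different directions. Pdk4 was at 7.70, 27.9 and 235 CPM and was higher at P1 than at E12.5 (log2 3.08 ± 1.62), Pdk2 was at 16.9, 161 and 172 CPM and was higher at E12.5 than at E9.5 (log2 3.25 ± 1.32, from 1.25 to 4.07 over the sets), and Pdk1 was at 188, 102 and 42.7 CPM and fell by 2.14 ± 0.078 on the log2 scale between E9.5 and P1. Mdh1, the cytosolic malate dehydrogenase, was at 1302, 4005 and 7796 CPM and was higher at E12.5 than at E9.5 (log2 1.62 ± 0.33).

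Beside these genes, 92 respiratory chain and ATP synthase genes had log2 ratios of their sum of 0.90 ± 0.29, 0.64 ± 0.24 and 1.54 ± 0.26, and the 17 glycolysis genes -0.31 ± 0.19, 0.11 ± 0.02 and -0.20 ± 0.23, the last being 0.11 in set C alone. In both comparisons with P1 the ratio of the fatty acid genes lay above that of the respiratory chain in every combination of sets, from 2.10 to 2.49 against 0.59 to 0.92 for P1 to E12.5. With 1 sample per time point this difference has no test. Among the glycolysis genes, Ldhb, the heart form of lactate dehydrogenase, was higher in all 3 comparisons at 443, 1237 and 3362 CPM, and Ldha, the muscle form, was at 3917, 1221 and 1043 CPM and lower at P1 than at E9.5.

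P1 cells differed among themselves. Of the 41 cells, 7 had 10 or more counts of Sln, sarcolipin, which is known from atrial CMs. In these the 39 genes summed to 18358, 31118 and 43406 CPM in the lowest, median and highest cell, and in the 33 other cells with 8 or more cardiomyocyte markers to 29054, 44306 and 62758 CPM. Fabp3 stood at 2102, 4189 and 12336 CPM in the former and at 6178, 11530 and 22208 CPM in the latter. The ranges overlap, the limit of 10 counts was chosen after the data were seen, the cells share 1 sample and no test was made. Cd36 medians were 2054 and 2181 CPM in these cells, with ranges of 329 to 3648 and 116 to 4775 CPM.

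**Figure D5:**
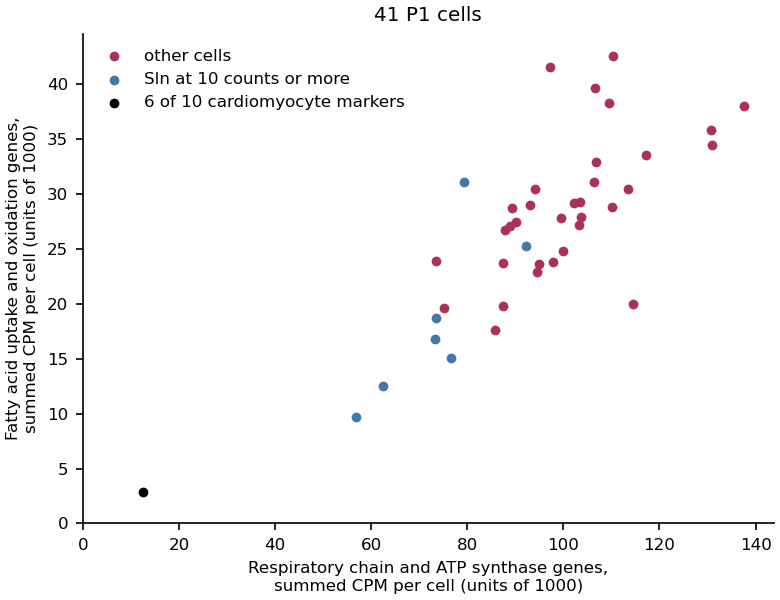
Summed CPM, in units of 1000, of the fatty acid genes against that of the respiratory chain (with ATP synthase) genes, each point 1 of 41 P1 cells, with the 7 cells with 10 or more Sln counts in blue. The black point at the lower left, with 6 of 10 cardiomyocyte markers and 2893 CPM of the fatty acid genes, is the cell with endothelial markers.

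Across the 41 P1 cells the summed fatty acid genes went with the respiratory chain (Pearson's r 0.80, Spearman's rho 0.76), with the citrate cycle (r 0.58, rho 0.54), with glycolysis (r 0.40, rho 0.35) and with the total count (r 0.21, rho 0.17) to different degrees. Without the cell with endothelial markers the values over 40 cells were 0.74 and 0.74, 0.45 and 0.51, and 0.28 and 0.30 for the first 3, and 0.30 and 0.22 for the total count. These describe cells of 1 sample whose CPM share a total, so a rise of one group lowers the room for the others. Within the naming sets of E9.5 the fatty acid genes and the respiratory chain had an r of 0.68 (14 cells) and 0.65 (28 cells), and within those of E12.5 0.26 (20 cells) and 0.59 (8 cells). With glycolysis the r in these sets was 0.68, 0.64, 0.13 and 0.45.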

How the data were processed

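Transcriptomes of 123 single αMHC-GFP+ cells of the mouse heart were deposited (42 E9.5, 29 E12.5 and 52 P1 cells). cDNA was made with SMART-Seq V4 on the Fluidigm C1, libraries with Nextera XT, and according to the methods of the study reads were mapped with OLego and assigned to genes with featureCounts. The submitters' processing notes name GRCm38 and mm10. The authors deposited read counts per gene without normalization, and TPM, which are counts divided by gene length and scaled to 1000000 per cell. The counts carry no molecular identifiers, and no strand setting is given in the sources used here. No columns were identical.

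Cells with counts in 2000 genes or more were kept. Counts of the cells of a time point were summed and divided by their total (pooled CPM), with exact Poisson intervals for levels and exact Clopper-Pearson intervals for shares of cells (95%). Depth sets the precision, and 1 count was worth 0.00990 CPM pooled over E9.5, 0.0198 CPM over E12.5 and 0.147 CPM over P1. As the labels name no animal, litter or chip, each time point is 1 sample and no test was run across cells. In place of a test, a gene at 10 pooled CPM or more at either time point was called when it differed 2-fold or more the same way in the pooled cells and in every combination of naming sets of 6 or more cells. A time point at 0 counts was set to 3 counts. All 39 genes may be named, and other pathway genes were named when called, except that 1 of them is counted but not reported here. The alternatives were a minimum of 1000 or 3000 genes, mean cell CPM, TMM factors (edgeR 4.0.16, R 4.3.3), deposited TPM, thinning to 100000 counts (seed 1), naming sets alone, leaving out cells, no minimum level and 3-fold. Python 3.11.15, numpy 2.4.6, pandas 2.3.3, scipy 1.17.1 and matplotlib 3.10.9 were used. The genes and lists were chosen with earlier results of these data known. Promoters were read from RefSeq windows on GRCm38.p6.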

Additional observations from a re-analysis of the deposited data

How the results depend on the processing

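With the gene minimum at 1000 or 3000, mean cell CPM, deposited TPM, TMM factors, thinning, single naming sets and cells left out, the summed log2 ratio of the 39 genes kept its direction, from 0.73 to 1.32 for E12.5 to E9.5, 1.12 to 1.81 for P1 to E12.5 and 2.07 to 2.75 for P1 to E9.5. It moved by more than the spread between sets to 1.32 (E12.5 to E9.5) and 1.12 (P1 to E12.5) with TMM factors, to 1.81 (P1 to E12.5) with TPM, to 1.67 (P1 to E12.5) and 2.75 (P1 to E9.5) with set C alone, and to 1.12 (P1 to E12.5) without Mdh2, Idh3a and Fabp3, which had the most counts.

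The number of genes called higher at E12.5 against E9.5, 7 in the report, was 14 with TMM factors (6.55% of all genes tested), 19 with set C alone (22.44%), 16 with sets N530 and N523 (21.75%) and 4 at 3-fold (1.77%). Sets N530 and N523 also gave 4 lower there and 1 lower at P1 against E9.5, and no minimum of CPM gave 1 lower at P1 against E12.5. The share of all genes called lower was not computed in these settings, so these counts cannot be set against it. With 1 combination of sets in place of 4 the rule is easier to pass. At P1 against E12.5 it was 11 with TMM factors (12.78%), 8 at 3-fold (10.47%), 24 with set C alone (20.98%), 19 with N530 and N523 (38.76%), 14 with TPM (10.95%) and 14 without cells whose titles end in no (16.90%) in place of 17, and at P1 against E9.5 it ranged from 23 at 3-fold (8.47%) to 36 with set C alone (22.68%) in place of 31. Decr1, lower at E12.5, lost its call with TMM factors and at 3-fold. An alternative chosen after seeing the data left out each gene's top cell at each time point. With it 8, 18 and 32 genes were higher, against 2.00%, 16.15% and 12.56% of all genes tested the same way. Called lower were 0, 0 and 0, against 13.19%, 13.07% and 31.16% of all genes. Calls were gained by Acadm, Etfdh, Idh3b and Idh3g at E12.5 to E9.5, Hadh and Etfb at P1 to E12.5 and Cs at P1 to E9.5.

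Of 264 values for single steps, 219 stayed within the spread, 41 moved and 4 changed sign. All 4 were ketone use at P1 to E12.5, at 0.14 with mean cell CPM, 0.0232 with TPM, 0.13 with thinning and 0.31 with set C alone. For E12.5 to E9.5, TMM factors gave 2.05 for uptake and activation, 1.68 for the spiral, 0.76 for the auxiliary enzymes and 0.93 for pyruvate dehydrogenase. TPM gave 0.97 for the shuttle, 0.81 for the spiral, 0.87 for the auxiliary enzymes and 0.40 for the electron transfer flavoprotein. Set C gave 2.21 for uptake, 0.81 for the spiral, 0.72 for the auxiliary enzymes and 1.32 for pyruvate dehydrogenase. Mean cell CPM gave 0.70 for the auxiliary enzymes and 1.06 for pyruvate dehydrogenase, and thinning 1.07 for the latter.

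For P1 to E12.5, set C gave 3.54 for uptake, 1.34 for the shuttle, 2.17 for the spiral, 1.55 for the auxiliary enzymes, 1.499 for the electron transfer flavoprotein, 0.96 for pyruvate dehydrogenase and 0.90 for the citrate cycle. Uptake was 4.14 with 3000 genes per cell and 3.44 with TMM factors, and TPM gave 1.31 for the auxiliary enzymes and 0.94 for pyruvate dehydrogenase. For P1 to E9.5, set C gave 5.76 for uptake, 2.46 for the shuttle, 2.98 for the spiral, 2.26 for the auxiliary enzymes, 2.48 for the electron transfer flavoprotein, 2.23 for ketone use, 2.28 for pyruvate dehydrogenase and 1.84 for the citrate cycle. TPM gave 1.75 for the shuttle, 2.54 for the spiral and 2.18 for the auxiliary enzymes, TMM factors 2.97 for the spiral and 2.52 for the auxiliary enzymes, and the auxiliary enzymes were at 2.27 with thinning and 2.27 without the cell with most counts of the list. The cause of these moves was not tested.

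The Cpt1b share at E12.5 was 4.69% with mean cell CPM, 3.02% without cells whose titles end in no, 4.30% without the top cell, 9.05% with pooled counts and 4.55% with thinning. At P1 it was 0% with 3000 genes per cell and with thinning, where its only count was lost.

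No paired analysis was possible because the labels give no replicate numbers that the time points share. Each time point is 1 sample of cells with unknown animals, and P1 cells are the shallowest. The dissociation enzyme changed with P1 only and cannot be told apart from it. Set C gave 1.08, 1.67 and 2.75 (log2) for the 39 genes. Its titles begin alike at all time points, but the labels do not say that these cells share a chip or run.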
